A study of Drosophila melanogaster with 54 samples.

Results

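The 10 genes described here encode neuropeptides and peptide hormones of the fruit fly Drosophila melanogaster: ETH, Akh, CCHa2, Tk, NPF, sNPF, Dh31, Dh44, AstA and AstC. They were chosen by their gene symbols, as 10 of the 13926 rows of a deposited expression table, and all 10 were among the 12555 genes with enough signal to be tested. The table gives TPM, the transcripts-per-million unit, a level corrected for transcript length and scaled to the same total in every library.

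Insect neuropeptides are cut from longer precursors, packed into dense-core vesicles and released from neurons, from endocrine cells of the gut and from dedicated glands, and they act on G-protein-coupled receptors elsewhere in the body. Several of the 10 are gut and brain peptides that tune feeding, gut movement and the release of other hormones. Akh, from the corpora cardiaca beside the brain, mobilises stored fat and sugar much as glucagon does in mammals. ETH, from the Inka cells that sit on the tracheae, triggers the shedding of the cuticle at each moult and in adult flies acts on the gland that makes juvenile hormone.

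RNA came from whole 10-day-old males of 6 strains, each reared at 18, 25 and 29 °C, with 3 libraries in each of the 18 groups and 54 in all. The control strain was w1118, which carries no transgene. The other 5 strains expressed FLucDM-GFP, a form of firefly luciferase prone to misfolding and joined to green fluorescent protein. It was directed to the cytoplasm from 1 copy (Cyto), to the nucleus from 1 or 2 copies (NLS) or to the mitochondria from 1 or 2 copies (Mito). The labels name no promoter or driver for the transgene, no insertion site and no cross by which flies with 1 copy were obtained. They number the libraries of a group without stating that each came from separate flies, so each p-value rests on the spread among libraries, which may be technical. In RNA from whole flies, fewer cells of a type and less RNA per cell cannot be told apart. Each library held 11995 to 12158 genes at 1 TPM or more, Pearson r across genes was at least 0.990 within a group and at most 0.994 between groups, and the read depth behind the values is unknown.

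Positions were taken from the BDGP6 annotation, in which all 10 genes are protein-coding. ETH lies on chromosome arm 2R from 24794670 to 24795482 and Akh on 3L from 4141467 to 4142070. On 3R lie CCHa2 from 13389059 to 13395197, Tk from 11994175 to 12005473, NPF from 16609220 to 16611325, Dh44 from 9638182 to 9650706 and AstA from 24760530 to 24765071. On 2L lie Dh31 from 8491868 to 8506845, sNPF from 20027915 to 20056373 and AstC from 11076165 to 11081399. The antisense RNA gene asRNA:CR43257 runs opposite to ETH over its whole length and shares 683 of the 755 exonic bases of ETH. That antisense gene was not analysed here, and the sources used here do not give whether reads were counted by strand, so the ETH values may include antisense reads. Dh31, Dh44 and Tk overlap Bace, Fst and Ect3 respectively, in each case with 0 shared exonic bases.

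In order of mean TPM over the 54 libraries, ETH was lowest at 7.49, followed by Dh44 at 11.3, Tk at 18.7, NPF at 19.1, sNPF at 21.1, AstA at 21.7, Dh31 at 28.9, AstC at 42.1, Akh at 44.0 and CCHa2 at 131. Between 4 neighbouring pairs the order was clear within single libraries: Tk stood above Dh44, AstC above Dh31 and CCHa2 above Akh in 54 of 54, and Dh31 stood above AstA in 53. The middle of the order was not resolved. NPF exceeded Tk in 31 of 54 libraries, AstA exceeded sNPF in 30, Akh exceeded AstC in 33, sNPF exceeded NPF in 42 and Dh44 exceeded ETH in 48. ETH was also the most variable member, since its highest group mean was 10.3 times its lowest, whereas this ratio was 2.11 for Tk, 1.87 for CCHa2, 1.62 for Akh and at most 1.56 for the other 6.

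**Figure D1:**
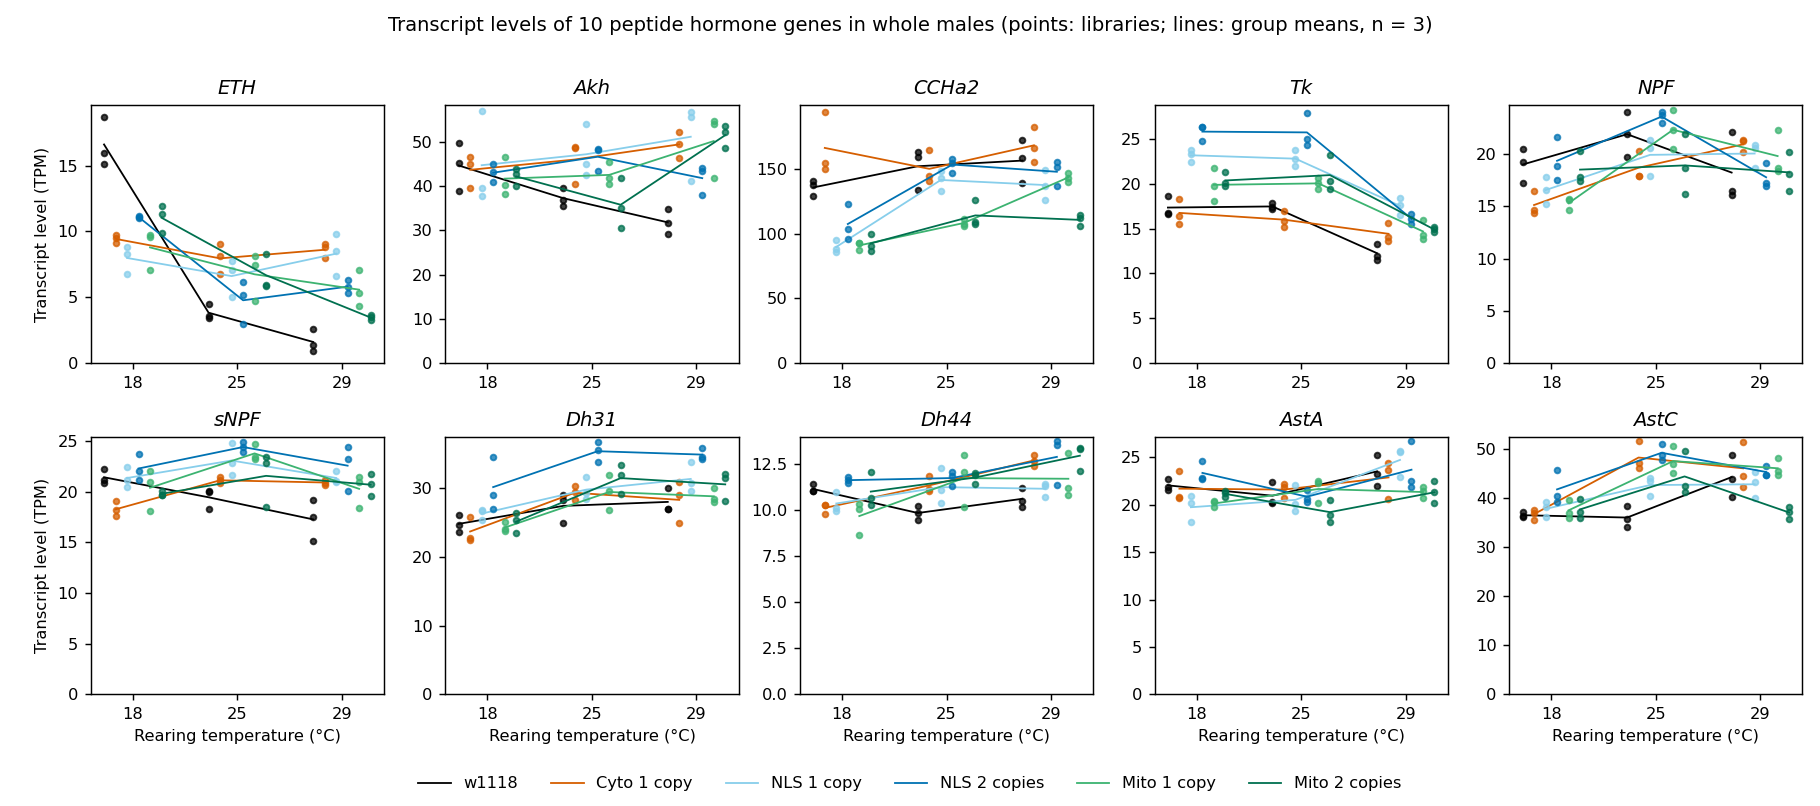
Transcript level in TPM (vertical axis, from 0) of the 10 peptide hormone genes against rearing temperature in °C (horizontal axis), with 1 point per library, 1 line per strain through the group means (n = 3) and strains set slightly apart sideways. ETH in w1118 has a mean of 16.6 TPM at 18 °C but 1.60 TPM at 29 °C, while Tk lies higher in both NLS strains than in w1118 at all 3 temperatures.

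The first comparison asked how each transgenic strain differed from w1118, averaged over the 3 rearing temperatures (9 libraries on either side). Differences are on the scale of log2(TPM + 1) and were tested with limma. A gene is said to be higher or lower, or to have risen or fallen, where its p-value adjusted by Benjamini-Hochberg over the 12555 genes was under 0.05. ETH and Akh were higher in all 5 strains. CCHa2 was lower in all 4 NLS and Mito strains and higher in Cyto, and Tk was higher in those 4 strains but not called in Cyto. In Cyto, 5 of the 10 genes were higher and 0 lower, beside 31.1% higher and 35.3% lower among all genes tested. In NLS 1 copy the counts were 5 and 1 (all genes 30.5% and 38.3%), in NLS 2 copies 7 and 1 (26.1% and 41.0%), in Mito 1 copy 5 and 1 (26.6% and 36.7%) and in Mito 2 copies 5 and 2 (19.6% and 36.3%). The median difference of the 10 genes ran from 0.08 in Cyto to 0.22 in NLS 2 copies, and that of all genes from -0.05 in Mito 2 copies to -0.01 in Cyto. Rescaling the libraries moved the balance of all calls, from 39.0% higher to 49.7% with quantile normalization and 50.3% with median-ratio size factors in NLS 2 copies, and from 35.0% to 48.2% and 49.4% in Mito 2 copies. The 5 comparisons use the same 9 w1118 libraries and are not independent of each other. The Cyto count of 5 fell to 3 without Cyto library 2 at 18 °C, without w1118 library 1 at 18 °C and without w1118 library 1 at 29 °C.

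The same differences were then read at each temperature alone, 3 libraries against 3, a division chosen after seeing the data. The 5 comparisons at 1 temperature use the same 3 w1118 libraries, so agreement among the 5 strains is not independent. Of the 18 groups, w1118 at 29 °C had the lowest mean for ETH, Akh, sNPF and Tk. For AstC the lowest was w1118 at 25 °C. At 18 °C, 4 of the 10 genes were called in Cyto (all genes 43.8%), 3 in NLS 1 copy (48.4%), 5 in NLS 2 copies (46.1%), 5 in Mito 1 copy (39.1%) and 3 in Mito 2 copies (38.1%). Of these, 1 was higher and 3 lower in Cyto, 1 and 2 in NLS 1 copy and 3 and 2 in NLS 2 copies. In Mito 1 copy 1 was higher and 4 lower, and in Mito 2 copies 1 and 2. At 25 °C, 3 were called in Cyto (41.3%), 6 in NLS 1 copy (46.9%), 6 in NLS 2 copies (48.9%), 6 in Mito 1 copy (35.6%) and 6 in Mito 2 copies (37.5%). All calls in Cyto and both NLS strains were higher, and in each Mito strain 5 were higher and 1 lower. At 29 °C, 5 were called in Cyto (59.9%), 4 in NLS 1 copy (57.4%), 6 in NLS 2 copies (52.7%), 4 in Mito 1 copy (53.7%) and 7 in Mito 2 copies (34.1%). All calls in Cyto, both NLS strains and Mito 1 copy were higher, and in Mito 2 copies 5 were higher and 2 lower. These counts lay on both sides of the share of all genes, farthest from it in Mito 2 copies at 29 °C (7 of 10 beside 34.1%). Counts out of 10 are coarse, so the sizes and directions of the single genes carry the description that follows. Whether a difference between strains depended on temperature was tested as the strain by temperature interaction, called for 8 of the 10 genes beside 56.0% of all genes; Dh31 (adjusted p = 0.9) and AstA (0.058) were the exceptions, and AstA was called in 12 of the 54 fits that left out 1 library (adjusted p down to 0.0205).

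**Figure D2:**
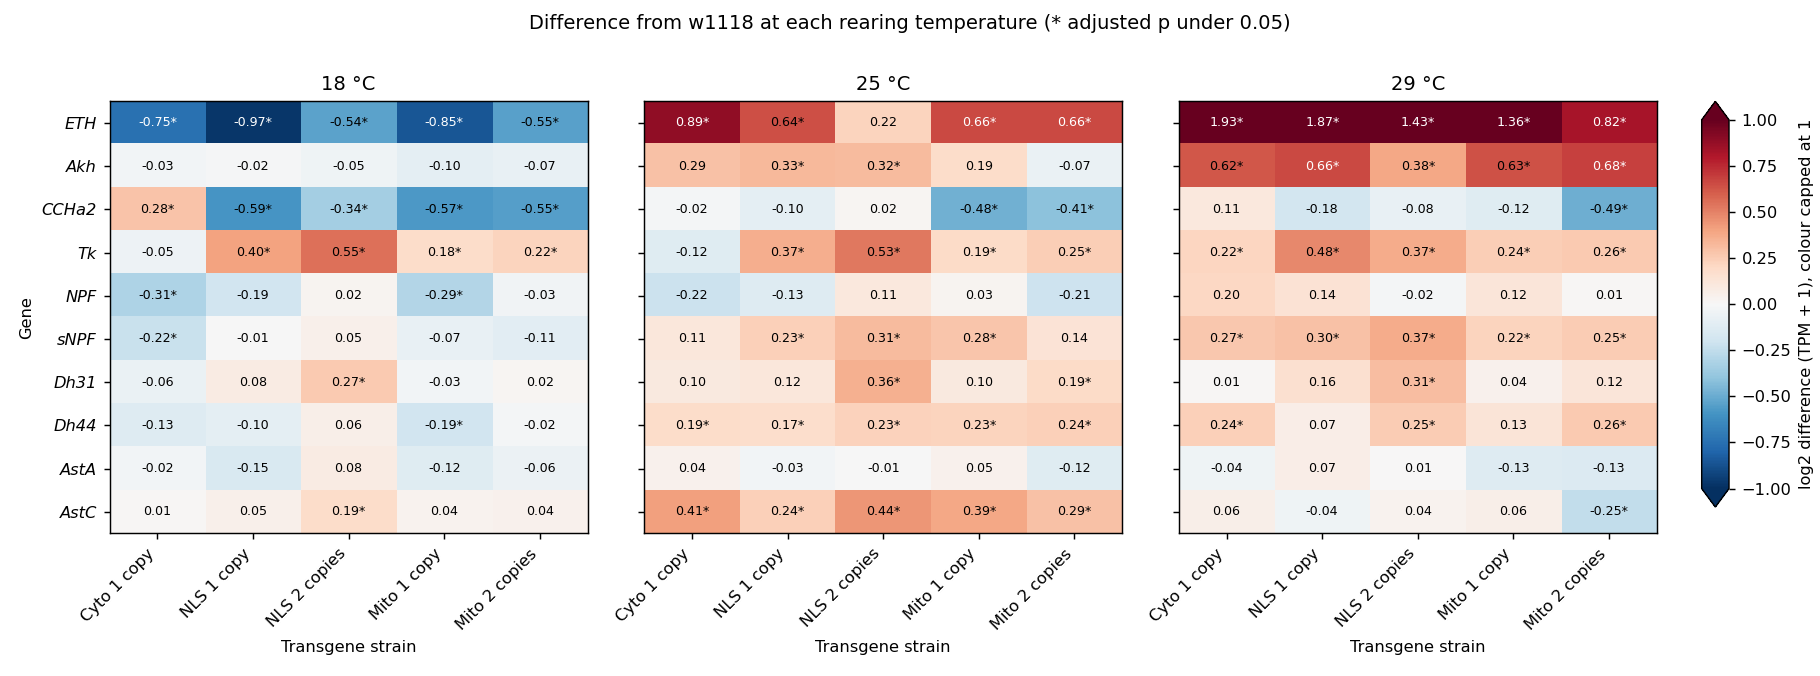
Difference of each transgenic strain (columns) from w1118 in log2(TPM + 1) for the 10 genes (rows) at 18, 25 and 29 °C (panels), with red higher, blue lower, colour capped at 1 in either direction and stars marking an adjusted p under 0.05. The ETH row is blue in all 5 strains at 18 °C, from -0.97 to -0.54, and red in all 5 at 29 °C, from 0.82 to 1.93.

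ETH, the ecdysis triggering hormone, showed the largest differences of the 10 genes and reversed its direction between temperatures. In w1118 its libraries read 16.0, 15.1 and 18.7 TPM at 18 °C, 3.43, 3.54 and 4.52 TPM at 25 °C and 1.34, 2.55 and 0.926 TPM at 29 °C. In Cyto they read 9.52, 9.69 and 9.08 TPM at 18 °C, 9.03, 6.73 and 8.09 TPM at 25 °C and 9.03, 7.98 and 8.80 TPM at 29 °C. The w1118 libraries separated fully by temperature, whereas those of Cyto stayed within a narrow band. In NLS 1 copy they read 8.84, 6.79 and 8.32 TPM at 18 °C and 9.77, 6.63 and 8.53 TPM at 29 °C, and in NLS 2 copies 11.0, 11.1 and 11.2 TPM at 18 °C and 6.30, 5.31 and 5.80 TPM at 29 °C. In Mito 1 copy they read 9.60, 9.71 and 7.05 TPM at 18 °C and 7.08, 4.33 and 5.32 TPM at 29 °C, and in Mito 2 copies 9.89, 11.3 and 11.9 TPM at 18 °C and 3.24, 3.50 and 3.64 TPM at 29 °C. At 18 °C every library of the 5 strains lay below every w1118 library, and at 29 °C every one lay above. At each temperature the 5 strains were set against the same 3 w1118 libraries.

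In numbers, ETH at 18 °C was lower than in w1118 by 0.75 in Cyto, 0.97 in NLS 1 copy, 0.54 in NLS 2 copies, 0.85 in Mito 1 copy and 0.55 in Mito 2 copies (SE 0.19, limma, adjusted p from 3.9e-05 to 0.018). At 29 °C it was higher by 1.93 in Cyto, 1.87 in NLS 1 copy, 1.43 in NLS 2 copies, 1.36 in Mito 1 copy and 0.82 in Mito 2 copies (SE 0.19, adjusted p from 1.4e-11 to 0.00048). At 25 °C it was higher by 0.64 to 0.89 in 4 strains, and the 0.22 of NLS 2 copies was not called, although without its library 3 it read 0.47 and was (adjusted p = 0.0467). From 18 to 29 °C, ETH fell by 2.80 in w1118 (SE 0.19, adjusted p = 2.7e-16), by 1.43 in Mito 2 copies, by 0.83 in NLS 2 copies and by 0.58 in Mito 1 copy, and was not called in Cyto (-0.12) or NLS 1 copy (0.04). The interaction had an adjusted p of 1.6e-09. Averaged over temperature, the difference from w1118 was 0.69 in Cyto, 0.51 in NLS 1 copy, 0.37 in NLS 2 copies, 0.39 in Mito 1 copy and 0.31 in Mito 2 copies, an average of opposite signs that describes no single temperature.

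Because 1 is added to each TPM, these values understate the change in w1118, where the group means stood in the ratio of 10.3. All 5 calls at 29 °C held without any 1 library. At 18 °C, NLS 2 copies lost its call without w1118 library 3 (-0.45, adjusted p = 0.08), and Mito 2 copies without w1118 library 3 (-0.46, adjusted p = 0.0863) or its own library 1 (-0.48, adjusted p = 0.0722). At 25 °C, Mito 1 copy lost it without its library 1 (0.53, adjusted p = 0.0507) and Mito 2 copies without its library 3 (0.52, adjusted p = 0.0519). The fall in Mito 1 copy was lost without its library 2 at 29 °C (-0.44, adjusted p = 0.0757). Genes of tracheal cells (trh, btl, serp and verm), on which the ETH-making cells sit, summed to 23.8 to 26.3 TPM in w1118 at 18 °C and to 23.0 to 24.5 TPM at 29 °C, and 0 of the 4 was called between those temperatures (all genes 56.1%), with a median difference of -0.03. In the 5 strains the same sum ran from 16.5 to 25.6 TPM over all temperatures. Averaged over temperature, btl and verm were lower than in w1118 in all 5, trh was lower in NLS 2 copies and Mito 2 copies, and serp was higher in both of these and in Mito 1 copy. Beside these, 19.6% to 31.1% of all genes were higher per strain and 35.3% to 41.0% lower. At 29 °C, where ETH was higher, 2 of the 4 were lower in every strain but Mito 1 copy, with 1. At that temperature 34.1% to 59.9% of all genes were called per strain, in either direction. The part of the tracheal markers in the ETH differences between strains was not tested.

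Akh, the fly's adipokinetic hormone, differed from w1118 mainly at high temperature. In w1118 it read 49.8, 39.0 and 45.3 TPM at 18 °C, 39.6, 35.4 and 36.9 TPM at 25 °C and 34.8, 31.6 and 29.1 TPM at 29 °C. At 29 °C the transgenic strains read 52.4, 49.6 and 46.5 TPM in Cyto, 55.6, 41.2 and 56.8 in NLS 1 copy, 43.4, 44.2 and 37.9 in NLS 2 copies, 41.8, 54.7 and 54.2 in Mito 1 copy and 52.3, 48.7 and 53.7 in Mito 2 copies. Every one of those libraries lay above the 3 w1118 libraries of that temperature, and at 18 °C the libraries of each strain overlapped with those of w1118. The differences at 29 °C were 0.62 in Cyto, 0.66 in NLS 1 copy, 0.38 in NLS 2 copies, 0.63 in Mito 1 copy and 0.68 in Mito 2 copies (SE 0.12 each, limma adjusted p from 1.3e-05 to 0.0079), and all 5 held without any 1 library. At 18 °C they were between -0.10 and -0.02 and not called.

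From 18 to 29 °C Akh fell by 0.47 in w1118 (SE 0.12, adjusted p = 0.0011), and in the other strains the differences, from -0.04 to 0.28, were not called. A rise was called in NLS 1 copy (0.20) without its library 2 at 18 °C (0.38, adjusted p = 0.00981) or library 2 at 29 °C (0.35, adjusted p = 0.0238). The same held in Mito 1 copy (0.26) without its library 1 at 18 °C (0.34, adjusted p = 0.0409) or library 1 at 29 °C (0.38, adjusted p = 0.0171), and in Mito 2 copies (0.28) with only the compared libraries in the fit (adjusted p = 0.0302). The interaction had an adjusted p of 0.0025. Averaged over temperature Akh was higher by 0.30 in Cyto, 0.32 in NLS 1 copy, 0.22 in NLS 2 copies, 0.24 in Mito 1 copy and 0.18 in Mito 2 copies (SE 0.07, adjusted p from 0.000105 to 0.0291). The value of Mito 2 copies lost its call without its library 2 at 25 °C or library 3 at 29 °C, or without w1118 library 2 at 18 °C, library 2 at 25 °C or library 3 at 29 °C (0.14 to 0.17, adjusted p from 0.0514 to 0.092). At 25 °C Akh was called in NLS 1 copy (0.33) and NLS 2 copies (0.32). Both calls were lost without w1118 library 2 or 3 at 25 °C, the first also without NLS 1 copy library 3 and the second without NLS 2 copies library 1 or 2 (0.23 to 0.32, adjusted p from 0.0668 to 0.177). Lst encodes limostatin, another hormone of the corpora cardiaca, and was here the only marker of that gland. In w1118 it moved in the same direction as Akh, falling by 0.70 from 18 to 29 °C (SE 0.09, adjusted p = 5.7e-09). Between these temperatures Lst also fell in Cyto (-0.31), NLS 1 copy (-0.44), NLS 2 copies (-0.21) and Mito 1 copy (-0.30). It was not called in Mito 2 copies (0.01). Akh was not called in any of these 5 strains (-0.04 to 0.28). At 29 °C Lst was higher than in w1118 in 4 of the 5 strains, by 0.22 to 0.60, and not called in Mito 1 copy (0.13). Whether the amount of that tissue in the RNA has a part in the Akh values was not tested.

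CCHa2, a peptide of gut and fat body that signals feeding state to the insulin-producing neurons, was lower in the NLS and Mito strains at low temperature. At 18 °C w1118 read 129, 137 and 140.4 TPM, NLS 1 copy 86.1, 94.9 and 88.0, NLS 2 copies 104, 95.5 and 123, Mito 1 copy 92.5, 92.6 and 87.4 and Mito 2 copies 86.7, 99.7 and 90.7. Cyto read 150.0, 194 and 155 TPM at that temperature. The libraries of the NLS and Mito strains thus all lay below w1118 and those of Cyto all above it. The differences from w1118 at 18 °C were -0.59 in NLS 1 copy, -0.34 in NLS 2 copies, -0.57 in Mito 1 copy and -0.55 in Mito 2 copies (SE 0.09 each, limma adjusted p from 5.8e-07 to 0.0016). Cyto was higher by 0.28 (adjusted p = 0.0084), a call lost without its library 2 (0.17, adjusted p = 0.152).

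At higher temperatures the strains parted. At 25 °C CCHa2 was called only in Mito 1 copy (-0.48) and Mito 2 copies (-0.41), and at 29 °C only in Mito 2 copies (-0.49, adjusted p = 1.7e-05), which read 112, 105 and 114 TPM against 139, 172 and 158 TPM in w1118. At 29 °C the -0.18 of NLS 1 copy was also called without w1118 library 1 (-0.27, adjusted p = 0.0182) or its own library 1 (-0.24, adjusted p = 0.0344). From 18 to 29 °C it rose by 0.61 in NLS 1 copy, 0.46 in NLS 2 copies, 0.65 in Mito 1 copy and 0.26 in Mito 2 copies, and the 0.20 of w1118 and 0.02 of Cyto were not called. Without w1118 library 1 at 29 °C the rise in w1118 was 0.28 and called (adjusted p = 0.0126). The rise in Mito 2 copies was lost without its library 1 at 18 °C (0.21, adjusted p = 0.0673) and with quantile normalization (0.15, adjusted p = 0.185). The interaction had an adjusted p of 2.4e-05. Averaged over temperature the differences were -0.29 in NLS 1 copy, -0.13 in NLS 2 copies, -0.39 in Mito 1 copy, -0.48 in Mito 2 copies and 0.12 in Cyto (SE 0.05). The 0.12 of Cyto lost its call without Cyto library 2 at 18 °C, library 1 at 25 °C or library 1 at 29 °C, or without w1118 library 1 at 18 °C, library 3 at 25 °C or library 1 at 29 °C (0.09 to 0.11, adjusted p from 0.062 to 0.123). The -0.13 of NLS 2 copies lost its call without NLS 2 copies library 2 at 18 °C or w1118 library 2 at 29 °C (-0.11, adjusted p 0.0598 and 0.0637), with quantile normalization (-0.07) and with median-ratio size factors (-0.08). The midgut marker genes (mex1, Npc1b, nub, lab and cad) summed to 79.7 to 83.6 TPM in w1118 at 18 °C and to 63.7 to 77.6 TPM in the NLS and Mito strains. Of the 5 genes, 2 were lower in Mito 1 copy and 2 in Mito 2 copies at 18 °C, and 1 in each NLS strain. Among all genes, those called in either direction at 18 °C were 39.1% in Mito 1 copy and 38.1% in Mito 2 copies. In NLS 1 copy they were 48.4% and in NLS 2 copies 46.1%. In Cyto at 18 °C, where CCHa2 was higher, the midgut sum was 74.5 to 83.6 TPM. At 29 °C that sum was 111 to 113 TPM in w1118 and 74.9 to 105 TPM over the transgenic strains. CCHa2 was then called only in Mito 2 copies. Within the midgut sum, Npc1b alone had group means from 2.12 TPM in Mito 2 copies at 18 °C to 34.5 TPM in w1118 at 29 °C. Those of mex1 ran from 30.7 to 39.8 TPM, so the sum is not a level shared by the 5 genes. The part of the midgut markers in the CCHa2 differences was not tested.

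Tk encodes tachykinins, made in the brain and in gut endocrine cells, and had its highest means in the NLS strains. At 18 °C its libraries read 16.7, 16.8 and 18.6 TPM in w1118, 23.3, 22.4 and 23.8 in NLS 1 copy and 26.3, 24.7 and 26.3 in NLS 2 copies. At the same temperature they read 18.1, 19.8 and 21.7 TPM in Mito 1 copy, 21.3, 19.7 and 20.0 in Mito 2 copies and 18.2, 15.6 and 16.4 in Cyto. Both NLS strains and Mito 2 copies were clear of w1118, while Mito 1 copy and Cyto overlapped with it. At 25 °C the w1118 libraries read 17.4, 17.9 and 17.2 TPM and at 29 °C 13.2, 12.0 and 11.5 TPM, and at 29 °C all 15 libraries of the transgenic strains lay above them.

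Averaged over temperature, Tk was higher than in w1118 by 0.42 in NLS 1 copy, 0.48 in NLS 2 copies, 0.20 in Mito 1 copy and 0.24 in Mito 2 copies (SE 0.04 each, limma adjusted p from 3e-14 to 1.5e-05), and 0.02 in Cyto was not called. These 4 calls held without any 1 library. It differed between compartments too, being higher in NLS 1 copy than in Cyto by 0.40 (adjusted p = 8.8e-11), lower in Mito 1 copy than in NLS 1 copy by 0.21 (adjusted p = 7.1e-05) and lower in Mito 2 copies than in NLS 2 copies by 0.24 (adjusted p = 3.2e-06). With warmer rearing, 29 against 18 °C, Tk fell in all 6 strains, by 0.65 in NLS 2 copies, 0.47 in w1118, 0.43 in Mito 2 copies, 0.41 in Mito 1 copy, 0.38 in NLS 1 copy and 0.20 in Cyto. The fall in Cyto was lost without Cyto library 1 at 18 °C (-0.14, adjusted p = 0.112) or library 3 at 29 °C (-0.16, adjusted p = 0.0718). The drop lay between 25 and 29 °C at -0.42 over the 6 strains, and Tk was not called from 18 to 25 °C (adjusted p = 0.89). The averaged 0.02 of Cyto joined opposite signs. At 29 °C Tk in Cyto was higher than in w1118 by 0.22 (limma adjusted p = 0.0053). That call was lost without Cyto library 1 (0.16, adjusted p = 0.0612). At 25 °C the Cyto libraries, at 15.2 to 17.0 TPM, lay below those of w1118, at 17.2 to 17.9 TPM, and the difference was not called. The interaction had an adjusted p of 0.0052.

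NPF and sNPF, both regulators of feeding, differed less. NPF, a relative of vertebrate neuropeptide Y, was not called in any of the 5 averaged comparisons (-0.11 to 0.04) or at 29 °C, where 3 strains were called without w1118 library 2 (0.34 in Cyto, 0.28 in NLS 1 copy and 0.26 in Mito 1 copy). It rose from 18 to 29 °C by 0.45 in Cyto, 0.26 in NLS 1 copy and 0.35 in Mito 1 copy, and in w1118, NLS 2 copies and Mito 2 copies the differences, from -0.11 to -0.02, were not called (interaction adjusted p = 0.0028). The Cyto libraries of NPF averaged 15.1 ± 1.15 TPM at 18 °C and 20.9 ± 0.640 TPM at 29 °C (SD, n = 3), with no overlap. The rise in NLS 1 copy was lost without its library 1 or 2 at 18 °C or library 1 or 3 at 29 °C (0.21 to 0.27, adjusted p from 0.0505 to 0.125). At 18 °C NPF was lower than in w1118 in Cyto (-0.31) and Mito 1 copy (-0.29), calls that were lost without w1118 library 2 (-0.26 and -0.24), without Cyto library 1 (-0.27), and, for Mito 1 copy, without its library 3 (-0.26) or w1118 library 1 (-0.28).

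The short neuropeptide F gene sNPF fell in w1118, with 21.4 ± 0.688 TPM at 18 °C but 17.3 ± 2.05 TPM at 29 °C (SD, n = 3, log2 -0.30, limma adjusted p = 0.00067), and the libraries did not overlap. In Cyto it rose from 18.3 ± 0.730 to 20.9 ± 0.270 TPM (log2 0.19), a call lost without Cyto library 1 or 3 at 18 °C or any of the 3 at 29 °C (0.16 to 0.20, adjusted p from 0.0556 to 0.117) and under both rescalings. In the other 4 strains it was not called. At 29 °C sNPF was higher than in w1118 in all 5 strains, by 0.27 in Cyto, 0.30 in NLS 1 copy, 0.37 in NLS 2 copies, 0.22 in Mito 1 copy and 0.25 in Mito 2 copies. The last 2 were lost without w1118 library 2 at 29 °C (0.14 and 0.17), and Mito 1 copy also without its own library 2 (0.18). Averaged over temperature sNPF was higher in NLS 1 copy (0.18), NLS 2 copies (0.25) and Mito 1 copy (0.14). The 0.09 of Mito 2 copies was not called, but was with quantile normalization (0.15, adjusted p = 0.00288), with median-ratio size factors (0.14, adjusted p = 0.00391), and without its library 1 at 25 °C or 3 at 29 °C or w1118 library 3 at 29 °C (0.11 to 0.13, adjusted p from 0.00863 to 0.043). The interaction (adjusted p = 0.02) was lost without w1118 library 2 at 18 °C (adjusted p = 0.0752).

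The diuretic hormone genes Dh31 and Dh44, whose peptides drive fluid secretion by the Malpighian tubules and are related to vertebrate calcitonin and corticotropin-releasing factor, were each higher in NLS 2 copies and Mito 2 copies than in w1118. For Dh31 the interaction was not called (adjusted p = 0.9). In NLS 2 copies it stood at 30.2 ± 3.95, 35.4 ± 1.52 and 34.9 ± 0.890 TPM at 18, 25 and 29 °C, against 24.8 ± 1.26, 27.5 ± 2.16 and 28.0 ± 1.79 TPM in w1118 (SD, n = 3 each), and the libraries did not overlap at any of the 3. The averaged difference was 0.31 (SE 0.04, limma adjusted p = 5.6e-08). Smaller differences were called in NLS 1 copy (0.12) and Mito 2 copies (0.11). The first was lost without w1118 library 3 at 25 °C (0.10, adjusted p = 0.0526). The second was lost without Mito 2 copies library 1 at 18 °C, 3 at 25 °C, or 1 or 2 at 29 °C, and without w1118 library 1 at 18 °C, 3 at 25 °C, or 1 or 2 at 29 °C (0.09 to 0.10, adjusted p from 0.0554 to 0.0918). Dh31 rose from 18 to 29 °C by 0.21 to 0.27 in the 5 transgenic strains, and the 0.17 of w1118 was not called, but was without its library 2 at 18 °C (0.20, adjusted p = 0.0424). The rise was lost in Cyto without its library 3 at 29 °C (0.18, adjusted p = 0.0774), in NLS 1 copy without its library 3 at 29 °C (0.19, adjusted p = 0.062) and in NLS 2 copies without library 2 or 3 at 18 °C or 3 at 29 °C (0.14 to 0.19, adjusted p from 0.062 to 0.165). With median-ratio size factors it was also lost in Cyto and NLS 2 copies (0.18 in each), while that of w1118 was called (0.18, adjusted p = 0.0423).

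At 25 °C Dh44 was called higher than in w1118 in all 5 strains. The values were 0.19 in Cyto, 0.17 in NLS 1 copy and 0.23 in Mito 1 copy. Those calls were lost in 4, 5 and 3 of 6 fits that left out 1 library. In NLS 2 copies and Mito 2 copies all such fits held (0.21 to 0.26). At 18 °C Dh44 was lower in Mito 1 copy (-0.19), a call lost in 4 of 6 fits. Averaged over temperature, Dh44 was higher in NLS 2 copies (0.18), Mito 2 copies (0.16) and Cyto (0.10), with a standard error of 0.04. The value of Cyto was lost without Cyto library 2 or 3 at 18 °C, 2 at 25 °C or 3 at 29 °C, and without w1118 library 1 or 3 at 18 °C, 1 at 25 °C, or 1 or 2 at 29 °C (0.09 to 0.10, adjusted p from 0.0524 to 0.0712). At 29 °C Dh44 stood at 10.6 ± 0.530 TPM in w1118, 12.7 ± 0.313 in Cyto, 12.9 ± 1.31 in NLS 2 copies and 13.0 ± 0.714 in Mito 2 copies (SD, n = 3 each), with no library of those 3 strains overlapping w1118. The rise from 18 to 29 °C was 0.30 in Cyto, 0.25 in Mito 1 copy and 0.22 in Mito 2 copies, and 0.10 in NLS 1 copy, 0.13 in NLS 2 copies and -0.07 in w1118 were not called. NLS 2 copies was called without its library 3 at 29 °C (0.21, adjusted p = 0.0195). The rise was lost in Mito 1 copy without library 2 at 18 °C or library 2 at 29 °C (0.18 and 0.17) and with only the compared libraries in the fit (adjusted p = 0.0747), and in Mito 2 copies without library 2 at 18 °C (0.18, adjusted p = 0.0688). The interaction (adjusted p = 0.028) was lost without w1118 library 1, 2 or 3 at 18 °C (adjusted p 0.0556, 0.0767 and 0.0548).

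The allatostatins are regulators of feeding and hormone release. AstA, which acts on receptors related to those of vertebrate galanin, was the steadiest member: its group means ran from 19.2 ± 1.19 TPM in Mito 2 copies at 25 °C to 24.7 ± 1.58 TPM in NLS 1 copy at 29 °C (SD, n = 3). It was called in 1 strain, Mito 2 copies (-0.10, SE 0.04, limma adjusted p = 0.024), a call lost without Mito 2 copies library 1 at 25 °C or 3 at 29 °C, without w1118 library 2 at 25 °C or 3 at 29 °C (-0.09, adjusted p from 0.0565 to 0.069) and under both rescalings (-0.05 each). Within strains it rose from 18 to 29 °C in NLS 1 copy alone (0.31, adjusted p = 0.00019). AstC, a relative of vertebrate somatostatin, was higher than in w1118 at 25 °C in all 5 strains, by 0.41 in Cyto, 0.24 in NLS 1 copy, 0.44 in NLS 2 copies, 0.39 in Mito 1 copy and 0.29 in Mito 2 copies (SE 0.07, adjusted p from 1.2e-06 to 0.0041). At that temperature w1118 stood at 36.1 ± 2.19 TPM and the strains between 42.7 ± 1.97 TPM in NLS 1 copy and 49.3 ± 1.70 TPM in NLS 2 copies (SD, n = 3 each), with no overlap. At 29 °C Mito 2 copies was lower (-0.25), a call lost without w1118 library 3 (-0.18, adjusted p = 0.0683), and the other 4 were not called. At 18 °C NLS 2 copies was higher (0.19), a call lost in 3 of 6 fits that left out 1 library. Averaged over temperature, AstC was higher in Cyto (0.16), NLS 2 copies (0.22) and Mito 1 copy (0.16). The 0.08 of NLS 1 copy was not called, but was under both rescalings (0.14 and 0.13) and in some fits that left out 1 library. In w1118 AstC rose by 0.27 from 18 to 29 °C (adjusted p = 0.0011), and in Mito 2 copies it was not called (-0.02). The interaction had an adjusted p of 0.00079.

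The second comparison asked what rearing temperature did. As the mean over the 6 strains from 18 to 29 °C, 6 of the 10 genes rose and 2 fell, beside 42.9% and 34.9% of all genes. The falls were ETH (-0.95) and Tk (-0.42). The rises were CCHa2 (0.37), Dh31 (0.23), AstC (0.19), Dh44 (0.16), NPF (0.14) and AstA (0.10), and Akh (0.07) and sNPF (-0.01) were not called. From 18 to 25 °C 7 of the 10 were called (all genes 64.1%), with CCHa2 (0.29), NPF (0.26), Dh31 (0.24), AstC (0.22), sNPF (0.10) and Dh44 (0.07) rising and ETH falling (-0.75). The 0.07 of Dh44 was lost without NLS 1 copy library 2 at 25 °C or Mito 1 copy library 2 at 18 or 25 °C (0.06, adjusted p from 0.0537 to 0.0576) and with quantile normalization (0.06). From 25 to 29 °C 6 were called (63.0%), with AstA (0.13) and Dh44 (0.08) rising and Tk (-0.42), ETH (-0.21), NPF (-0.12) and sNPF (-0.11) falling.

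Within single strains from 18 to 29 °C, 5 of the 10 genes were called in w1118 (all genes 56.1%), 6 in Cyto (49.8%), 6 in NLS 1 copy (52.5%), 4 in NLS 2 copies (54.1%), 7 in Mito 1 copy (48.9%) and 5 in Mito 2 copies (54.1%). In w1118 1 gene rose and 4 fell, namely AstC up and ETH, Akh, Tk and sNPF down. In Cyto 5 rose and 1 fell, in NLS 1 copy 5 and 1, in NLS 2 copies 2 and 2, in Mito 1 copy 5 and 2 and in Mito 2 copies 3 and 2. The Cyto count of 6 fell to 3 without Cyto library 3 at 29 °C. Calls that rest on 1 library are given with each gene above. For AstC the rise in NLS 1 copy (0.17) was lost without its library 1 or 2 at 18 °C or 1 or 2 at 29 °C (0.13 to 0.18, adjusted p from 0.0516 to 0.14).

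**Figure D3:**
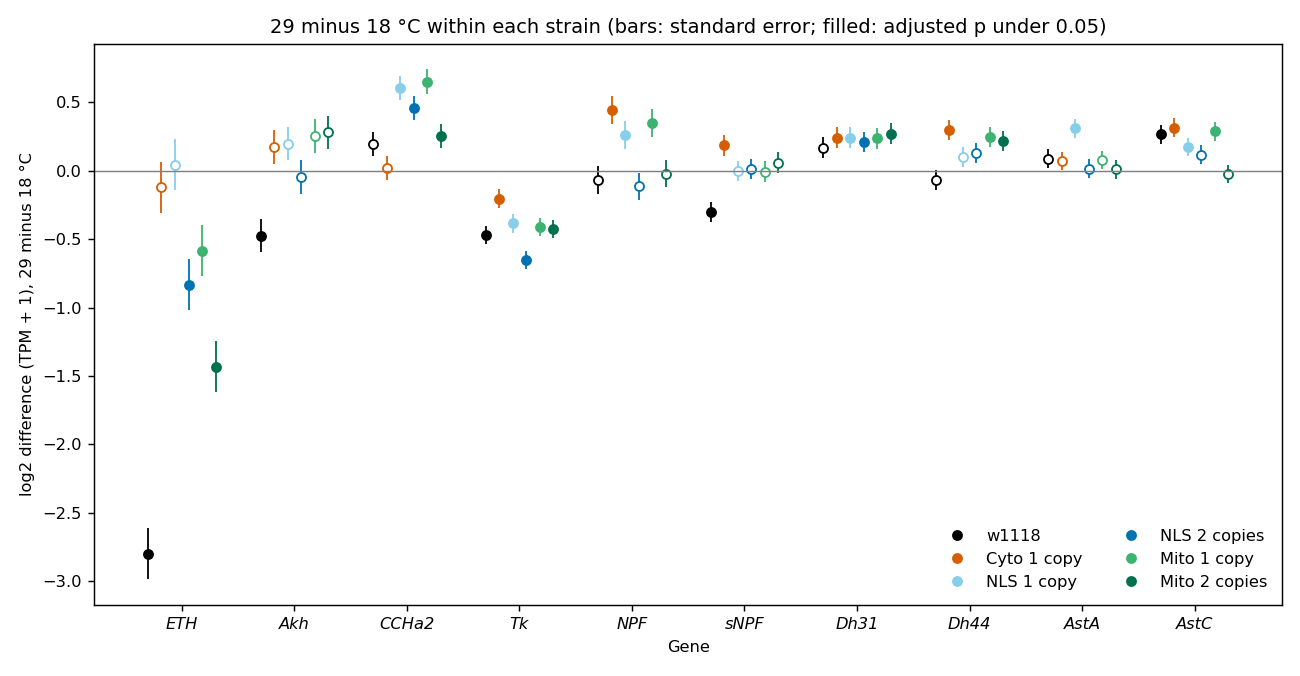
Difference between 29 and 18 °C in log2(TPM + 1) (vertical axis) for the 10 genes (horizontal axis), with 1 point per strain, standard errors as bars and filled points for an adjusted p under 0.05. ETH runs from -2.80 in w1118 to 0.04 in NLS 1 copy, and Tk lies below 0 in all 6 strains, from -0.65 to -0.20.

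The third comparison set copy numbers and compartments against each other, each as the mean over temperature. With 2 copies of NLS instead of 1, 4 of the 10 genes were higher (all genes 28.1% called): Dh31 by 0.19, CCHa2 by 0.16, AstC by 0.14 and Dh44 by 0.13. The CCHa2 value was lost without NLS 2 copies library 3 at 18 °C (0.12, adjusted p = 0.0665). With 2 copies of Mito instead of 1, 2 genes were called (42.2%), AstC lower by 0.13 and Dh44 higher by 0.11, the second lost without any of Mito 1 copy libraries 2 at 18 °C, 1 at 25 °C, or 1 or 3 at 29 °C or Mito 2 copies libraries 1 at 18 °C, 2 or 3 at 25 °C, or 1 or 2 at 29 °C, where 1 gene was left (0.08 to 0.10, adjusted p from 0.0572 to 0.139). AstC was thus higher with the second NLS copy and lower with the second Mito copy, a contrast that was not tested directly.

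At 1 copy each, 3 of the 10 genes differed between NLS and Cyto (32.1%), with Tk higher by 0.40, sNPF higher by 0.12 and CCHa2 lower by 0.41 in NLS. The sNPF value was lost without Cyto library 1 at 18 °C or NLS 1 copy library 3 at 18 °C, 1 at 25 °C or 3 at 29 °C (0.10 to 0.11, adjusted p from 0.0544 to 0.0685). Between Mito and Cyto 3 genes differed (26.4%), with Tk higher by 0.19 and CCHa2 and ETH lower by 0.51 and 0.30 in Mito. The ETH value, at an adjusted p of 0.0335, was lost under a smaller pseudocount, under both rescalings, and without Cyto library 1 or 2 at 18 °C, 1 or 3 at 25 °C, or 1 or 3 at 29 °C, or Mito 1 copy library 3 at 18 °C, 2 at 25 °C, or 2 or 3 at 29 °C (-0.30 to -0.23, adjusted p from 0.0505 to 0.114). Between Mito and NLS 1 gene differed at 1 copy (31.1%), Tk, and 6 differed at 2 copies (47.3%), all lower in Mito. Those 6 were CCHa2 (-0.35), Tk (-0.24), Dh31 (-0.20), AstC (-0.19), sNPF (-0.15) and AstA (-0.13).

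The receptors of the 10 peptides, 14 genes that were all tested, were mostly of low level and were called in 3 to 7 of 14 cases per strain: 7 higher in Cyto, 5 in NLS 1 copy, 4 in NLS 2 copies, 6 in Mito 1 copy with 1 lower, and 3 in Mito 2 copies. Dh31-R, the receptor of Dh31, was higher in all 5 strains, by 0.72 in Cyto, 0.56 in NLS 1 copy, 0.41 in NLS 2 copies, 0.53 in Mito 1 copy and 0.40 in Mito 2 copies (limma adjusted p from 1.9e-18 to 1.6e-10). Its level at 18 °C was 9.61 ± 0.366 TPM in w1118, against 16.9 ± 1.97 TPM in Cyto (SD, n = 3). AkhR, through which Akh acts on the fat body, was higher in 4 strains, by 0.55 in Cyto, 0.40 in NLS 1 copy, 0.41 in NLS 2 copies and 0.19 in Mito 1 copy, and 0.04 in Mito 2 copies was not called. At 18 °C, where Akh itself was not called in any strain, AkhR was higher in all 5, by 0.21 to 0.74. AstC-R2 was also higher in all 5 strains (0.13 to 0.40) and AstA-R1 in 4 (0.17 to 0.28). The lowest of each did not hold throughout. AstC-R2 in NLS 2 copies (0.13) lost its call with only the compared libraries in the fit (adjusted p = 0.0582) and without any of its libraries at 18 °C, 1 or 3 at 25 °C, or 1 or 3 at 29 °C, or w1118 library 1 or 3 at 18 °C, 1 or 3 at 25 °C, or 2 at 29 °C (0.09 to 0.13, adjusted p from 0.0507 to 0.152). AstA-R1 in Mito 1 copy (0.17) lost it with quantile normalization (0.14, adjusted p = 0.056), with only the compared libraries (adjusted p = 0.0735), and without Mito 1 copy library 2 or 3 at 18 °C or w1118 library 3 at 18 °C, 2 at 25 °C or 2 at 29 °C (0.14 to 0.15, adjusted p up to 0.0763). The receptor of ETH, ETHR, was not called in any strain (-0.08 to 0.10) or between 18 and 29 °C (0.08). From 18 to 29 °C over the 6 strains, 3 receptors rose and 9 fell, with a median of -0.12 beside 0.03 for all genes. Among all genes 42.9% rose and 34.9% fell between those temperatures. Averaged over temperature, 19.6% to 31.1% of all genes were higher than in w1118 per strain and 35.3% to 41.0% lower. NPFR, the receptor of NPF, fell by 0.65 from 18 to 29 °C (adjusted p = 8.3e-16) and AkhR by 0.29.

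Another 32 peptide genes were listed, of which Gpa2 was not analysed, Pburs and amn were too low to test and 29 were tested. Of these, 9 were higher and 3 lower in Cyto, 13 and 4 in NLS 1 copy, 15 and 5 in NLS 2 copies, 12 and 5 in Mito 1 copy and 10 and 6 in Mito 2 copies, with medians from 0.02 to 0.15. AstCC, a paralogue of AstC, was higher in all 5 strains by 0.53 to 0.92, at levels of 0.150 TPM in w1118 and 1.44 TPM in Mito 2 copies at 25 °C. It passed the filter only through the transgenic strains and so had to differ. Nplp2, at 2484 to 6533 TPM in single libraries, was higher in all 5 by 0.39 to 0.57, and Nplp1 by 0.30 to 0.50. Ptth, whose peptide drives ecdysone production in larvae, was lower in all 5 by 0.31 to 0.41. Per strain, 19.6% to 31.1% of all genes were higher than in w1118 and 35.3% to 41.0% lower. Between 18 and 29 °C 14 of the 29 rose and 9 fell, beside 42.9% and 34.9% of all genes. Nplp3 fell by 2.38 (adjusted p = 5.2e-38), from 301 ± 16.2 TPM to 58.0 ± 3.25 TPM in w1118 (SD, n = 3). CCAP, a cardioactive peptide that also acts at ecdysis, rose by 1.10 (adjusted p = 1.6e-21), from 3.97 ± 0.480 to 11.0 ± 1.15 TPM in w1118. Nplp4 rose by 0.99 and CNMa by 0.59.

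Of 11 genes for the making and release of peptides, 7 were higher and 1 lower in Cyto, 6 and 2 in each NLS strain, 4 and 3 in Mito 1 copy and 1 and 3 in Mito 2 copies. Beside these counts, 19.6% to 31.1% of all genes were higher per strain and 35.3% to 41.0% lower. 7B2, which helps fold the prohormone convertase that cuts the precursors, was higher in all 5 strains by 0.13 to 0.20. The transcription factor gene dimm, which directs the secretory programme of peptidergic cells, was lower in all 5, by 0.69 in Cyto, 0.84 in NLS 1 copy, 0.82 in NLS 2 copies, 0.76 in Mito 1 copy and 0.79 in Mito 2 copies (SE 0.06). It passed the filter of 1 TPM only through w1118 libraries, at 18 and 25 °C, and so had to differ between strains and between temperatures in w1118. Its levels were low, at 2.37 ± 0.309, 1.11 ± 0.101 and 0.737 ± 0.199 TPM in w1118 at 18, 25 and 29 °C (SD, n = 3 each) and between 0.191 and 0.456 TPM in all group means of the other strains. From 18 to 29 °C over the 6 strains, 2 of the 11 genes rose and 6 fell, beside 42.9% and 34.9% of all genes. 7B2 fell by 0.41 and svr, a carboxypeptidase gene, by 0.19, while QC, a glutaminyl cyclase gene, rose by 0.36.

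**Figure D4:**
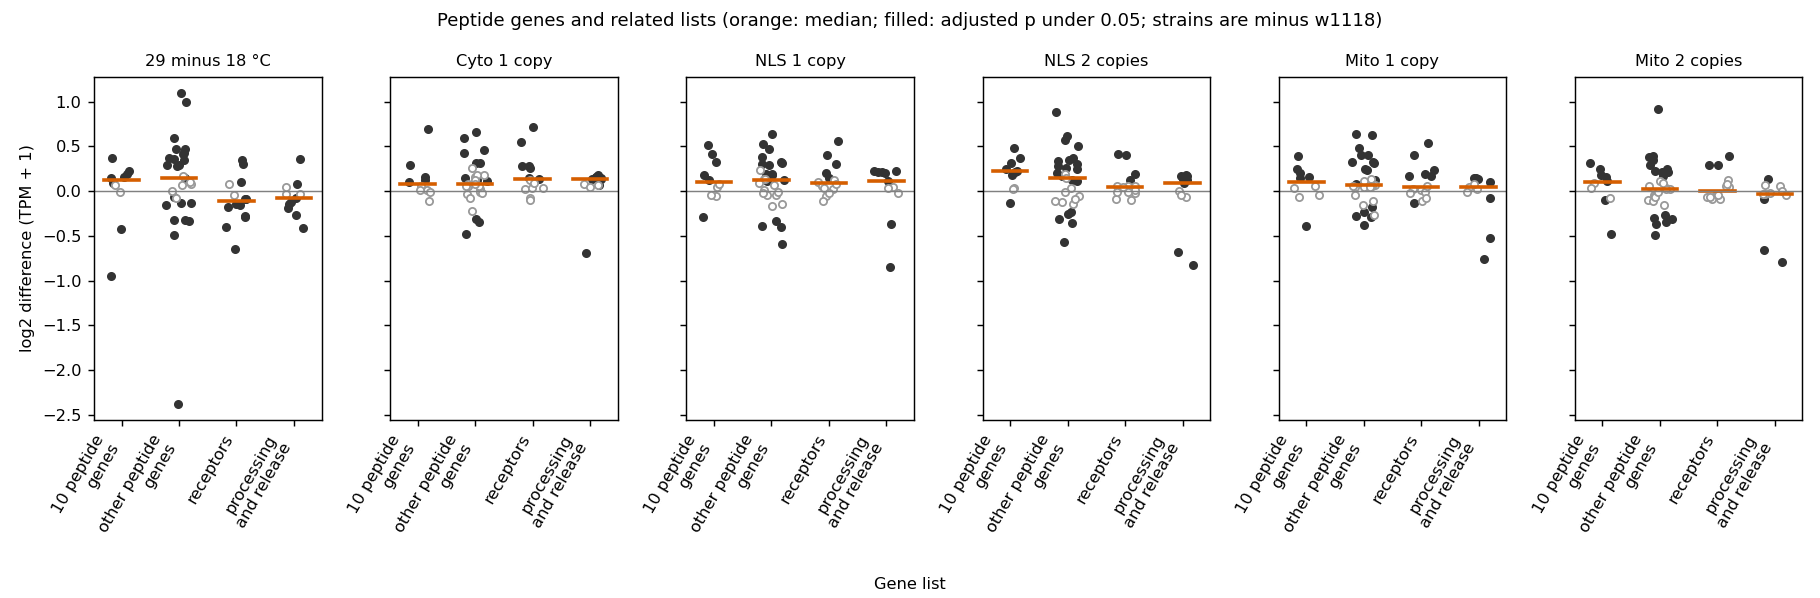
Differences in log2(TPM + 1) (vertical axis) of the 10 peptide genes, 29 other peptide genes, 14 receptor genes and 11 genes for peptide processing and release, for 29 minus 18 °C over 6 strains and for each transgenic strain minus w1118 (panels). Each point is a gene, filled where the adjusted p was under 0.05, and the orange line is the median. In the 5 strain panels dimm is the lowest point of the processing genes, from -0.84 to -0.69.

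Marker genes of the tissues that make these peptides also differed between groups. The 10 neuronal marker genes, among them elav, nSyb and brp, summed to 216 to 297 TPM in single libraries. Of them 3 were higher and 1 lower in Cyto, 4 and 1 in NLS 1 copy, 5 and 1 in NLS 2 copies, 5 and 1 in Mito 1 copy and 0 and 3 in Mito 2 copies, with medians from -0.07 to 0.11. The 5 glial markers summed to 611 to 1004 TPM. Of them 3 were higher in each strain (Eaat1, moody and Gs2), and nrv2 was lower in each, joined by repo in Mito 2 copies, with medians from 0.09 to 0.32. The enteroendocrine list (pros, Ptx1, mirr and tap) summed to 16.9 to 27.4 TPM, with tap too low to test. Of the other 3, 1 was higher and 0 lower in Cyto, 1 and 1 in NLS 1 copy, 0 and 2 in NLS 2 copies, 0 and 1 in Mito 1 copy and 0 and 3 in Mito 2 copies, with medians from -0.25 to -0.05. Of all genes, 19.6% to 31.1% were higher than in w1118 per strain and 35.3% to 41.0% lower. The part of the marker shifts in the peptide values was not tested.

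The genes most like each member in their level over the 18 group means were named by Pearson r, as a description. For ETH they were Cpr67B (r = 0.891), GAPcenA (0.865) and Rop (0.864), for Tk CG43351 (0.915), Ggamma30A (0.908) and Obp22a (0.891), and for Dh31 GNBP-like3 (0.907), eIF3c (0.904) and CG14629 (0.893). For Akh they were CG14075 (0.879), Rab21 (0.833) and CG14855 (0.808), and for CCHa2 CG34136 (0.853), Tsp42Eb (0.821) and Fdh (0.815). For the others the closest gene was CG6972 for Dh44 (0.876), natalisin, another peptide gene, for NPF (0.826), VGlut for sNPF (0.857), X11L for AstA (0.744) and prg for AstC (0.873). Among the 10 members the highest r was 0.697, between Dh31 and AstC, and the member most like ETH was Tk, at 0.399.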

How the data were processed

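Per the labels, total RNA was extracted from whole flies with TRIzol and made into libraries with a TruSeq RNA v2 kit. The authors deposited 1 table of TPM values per gene and library, with gene symbols. The genome builds BDGP6 and dm6 are named per the submitters' processing notes. No source used here names the aligner, the counter, its use of strand or the number of reads, so no counting interval could be given.

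From the deposited TPM values, those genes were tested that reached 1 TPM in 3 or more libraries. Values were analysed as log2(TPM + 1) with limma 3.58.1 in R 4.3.3, with 1 mean per group, a variance trend, 36 residual degrees of freedom, two-sided tests and Benjamini-Hochberg adjustment over all genes tested, at a threshold of 0.05. The method was tested on simulated data. Fold changes on this scale understate those of low genes. The members and lists were chosen with earlier results of these data known. All 10 members were named. Receptors, other peptide genes and processing genes were named where they were called with 1 sign in at least 4 or all 5 strains or stood foremost between 18 and 29 °C. ETHR and Lst were named beside the members they bear on. Alternatives changed the pseudocount to 0.1, the filter, the scaling and the libraries used. Library numbers were treated as names, since in 0 of 33 pairs of groups were all residual correlations between same-numbered libraries above 0.1.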

Additional observations from a re-analysis of the deposited data

Results flagged for a closer look

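For 8 of the 10 genes the difference between strains depended on rearing temperature, by limma's test of the strain by temperature interaction adjusted over all genes tested, a test that was called for 56.0% of all genes. The adjusted p was 1.61e-09 for ETH, which was lower than in w1118 at 18 °C and higher at 29 °C in all 5 transgenic strains. It was 2.39e-05 for CCHa2, which was lower in 4 strains at 18 °C and in 1 at 29 °C. It was 0.000793 for AstC, higher in all 5 strains at 25 °C and in none at 29 °C, where Mito 2 copies was lower. It was 0.00247 for Akh, which differed in all 5 strains at 29 °C and in none at 18 °C. For NPF it was 0.00277, for Tk 0.00522, for sNPF 0.0198 and for Dh44 0.0284. The sNPF call was lost without w1118 library 2 at 18 °C. That of Dh44 was lost without any 1 of the w1118 libraries at 18 °C. With quantile normalization and with median-ratio size factors, 6 of the 10 genes in place of 8 were called for the interaction. At each temperature the 5 strains were compared with the same 3 w1118 libraries, so their agreement is not independent. Groups of 3 libraries are too small to test for a library that stands apart.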

How the results depend on the processing

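The read depth is unknown, and 3 libraries a group limit the precision. With a pseudocount of 0.1, no filter, quantile normalization or median-ratio size factors, all 21 counts of called members stayed within 1.5 times the reported ones. Within that limit, median-ratio size factors gave 4 in place of 6 from 18 to 29 °C in Cyto. They gave 8 in place of 6 in NLS 1 copy against w1118. The interaction count was 6 in place of 8 under both rescalings. The fit with the library number as a replicate block moved none of the 21 counts beyond that and changed the side of the threshold for none of 302 gene values. With only the strains compared in the fit, 1 gene in place of 2 was called between the Mito copy numbers, and 2 in place of 1 between Mito and NLS at 1 copy. At 18 °C alone, 3 members in place of 6 were called in NLS 1 copy, 5 in place of 8 in NLS 2 copies and 3 in place of 7 in Mito 2 copies, and at 25 °C alone 3 in place of 5 in Cyto. Such fits at 1 temperature use fewer samples.

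Leaving out each library in turn gave 3 to 6 called members in Cyto, 3 to 6 from 18 to 29 °C within Cyto, 1 to 2 between the Mito copy numbers and 6 to 9 for the interaction. Signs turned at single temperatures. Of the values that follow, those of ETH, of Dh44 in Mito 1 copy, of sNPF in Cyto and of AstC in Mito 2 copies were called. The other single-temperature values were not called, and several lay near 0. At 18 °C alone, ETH read -0.75 in Cyto, -0.97 in NLS 1 copy, -0.54 in NLS 2 copies, -0.85 in Mito 1 copy and -0.55 in Mito 2 copies, and Akh -0.0279, -0.0154, -0.0468, -0.10 and -0.0742 in the same order. Dh44 read -0.13 in Cyto, -0.19 in Mito 1 copy and -0.0194 in Mito 2 copies, and sNPF -0.22 in Cyto, -0.0055 in NLS 1 copy and -0.0721 in Mito 1 copy. The sNPF call in Cyto was lost without Cyto library 1 or w1118 library 2 at 18 °C (-0.19 each, limma adjusted p 0.0638 and 0.062). At 25 °C alone, CCHa2 read -0.0173 in Cyto and 0.0169 in NLS 2 copies, and Akh -0.0672 in Mito 2 copies. At 29 °C alone AstC read -0.25 in Mito 2 copies. With quantile normalization, Nplp2 read 0.0314 from 18 to 29 °C in place of -0.13. The cause was not tested.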
